A study of Mus musculus with 12 samples.

Results

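A set of 9 genes that mark neurons of the upper and deep layers of the cerebral cortex was followed in cortex and hippocampus of mice without Tert. The set holds 9 of the 55487 gene rows in each tissue's table and was chosen by symbol. Cux1, Cux2, Rorb and Lamp5 are the 4 upper layer genes, and Bcl11b, Fezf2, Tle4, Foxp2 and Tbr1 are the 5 deep layer genes. The study measured RNA by sequencing in 4 groups with 3 libraries each, 12 libraries in all. Knockout cortex and knockout hippocampus carry the genotype label mTert KO (G1), and wild-type cortex and wild-type hippocampus carry mTert WT. All mice were of the C57BL/6 strain; age, sex, the number of animals and the construct of the allele are not stated in the labels. Whether a group's 3 libraries are 3 animals is likewise not stated, so p-values measure the spread between these libraries, which may be technical.

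The cortex is built of layers whose excitatory neurons are born in order, deep layers first, and which send their axons to different targets. Upper layer neurons connect cortical areas with each other. Deep layer neurons project out of the cortex, those of layer 5 to brainstem and spinal cord and those of layer 6 to the thalamus. Transcription factors that repress each other's programmes set these identities during development, and many stay on in the adult. Several of the same factors also mark neurons outside the cortex, among them granule and pyramidal cells of the hippocampus and the projection neurons of the striatum.

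Tert, the catalytic subunit of telomerase, was listed at 0 in all 3 knockout cortex libraries, against 206, 105 and 241 normalized counts in wild-type cortex. In knockout hippocampus it had 0, 6.31 and 0 normalized counts, where 6.31 stands for 7 reads, against 147, 184 and 128 in wild-type hippocampus. Libraries held between 68424934 and 77972013 reads in cortex and between 72401909 and 86639113 in hippocampus. Wild-type cortex library 2 stood apart from the other 2 of its group, at a chi-square per gene of 103 against library 1 and 94.5 against library 3, where those differed by 9.59. The next largest value within a group was 49.1, between wild-type hippocampus libraries 1 and 2. Markers of cortical excitatory neurons, such as Slc17a7 and Neurod6, were present in every cortex library, with a summed level of 6 markers between 422283 and 433680 normalized counts in knockout cortex and between 346773 and 386316 in wild-type cortex. The 12 markers of hippocampal fields summed to between 109319 and 115093 in knockout hippocampus and between 119812 and 141391 in wild-type hippocampus, against between 19047 and 19226 in knockout cortex and between 19888 and 21155 in wild-type cortex.

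All 9 genes passed the filter of a mean of at least 10 normalized counts in both tissues. In cortex, 1 of the 9 rose and 1 fell in the knockout by limma, called where the p adjusted over all genes (Benjamini-Hochberg) was below 0.05. Of all 21945 genes tested in cortex 1.94% were called, 1.28% as rises and 0.661% as falls. The gene that rose was Rorb, an upper layer gene, and the gene that fell was Fezf2, a deep layer gene. Cux1, Cux2, Bcl11b, Foxp2 and Tbr1 joined Rorb as higher in cortex at an unadjusted p under 0.05. At that threshold 10% of all cortex genes were higher and 8.38% lower. In hippocampus, 1 of the 9 rose, again Fezf2, and 0 fell by limma, where 29.2% of 22337 genes were called, 14.1% as rises and 15.1% as falls. At an unadjusted p under 0.05, Cux1 and Lamp5 joined Fezf2 in hippocampus, with log2 fold changes of -0.16 and 0.12, where 21.1% of all genes were higher and 20.2% lower at that threshold. The count tests edgeR and DESeq2 each called 1 of the 9 lower there, Cux1. The calls over all hippocampus genes were 48.2% rises, and 60.7% rises after quantile normalization.

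**Figure D1:**
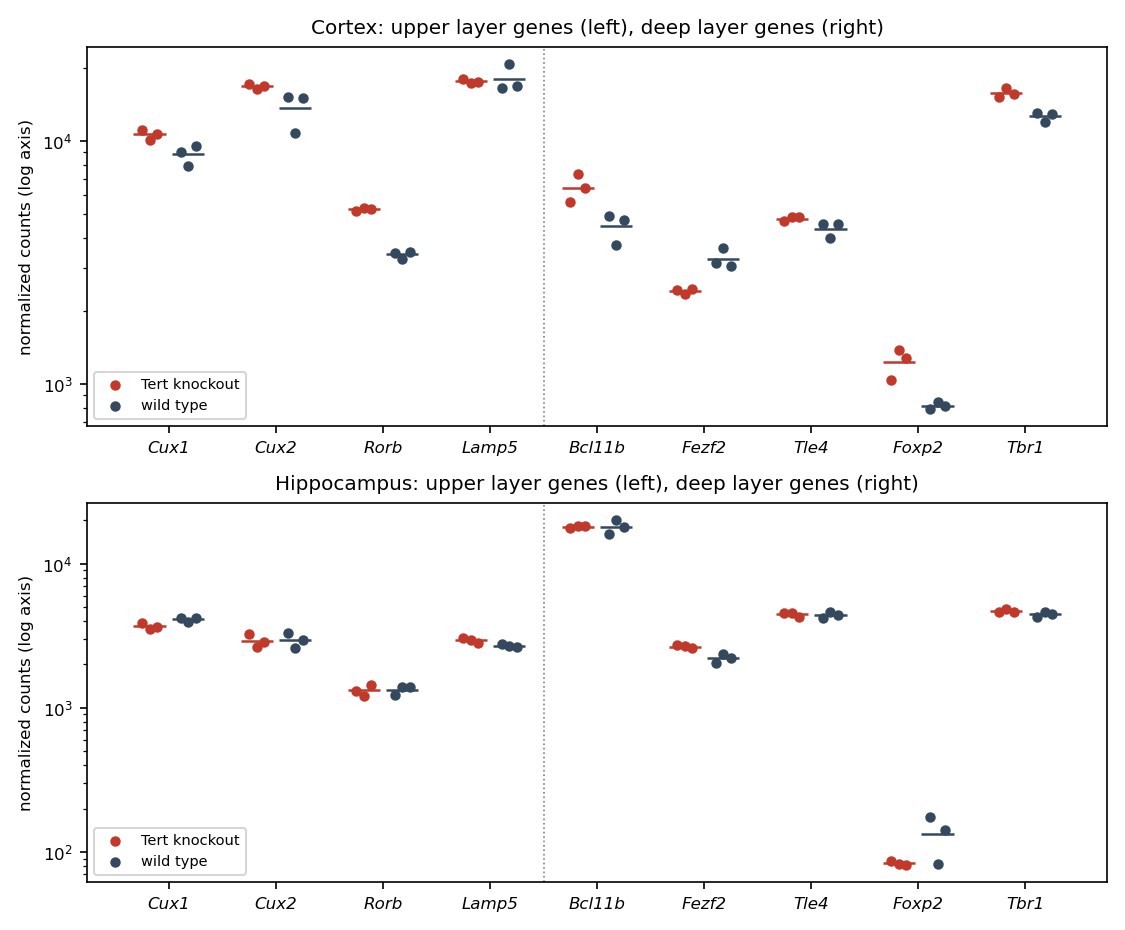
Normalized counts on a log axis of the 9 genes in cortex (top) and hippocampus (bottom), one point per library in replicate order, with a line at the group mean, knockout left of wild type. In cortex the Rorb points of the knockout lie above those of wild type and the Fezf2 points below them, and Lamp5 is the gene whose groups overlap there.

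Rorb encodes a nuclear receptor that marks layer 4, the layer that receives sensory input from the thalamus. The gene lies on chromosome 19 from 18930605 to 19111196 on the minus strand (GRCm38, ENSMUSG00000036192). RefSeq lists 2 starts for it, and the gene's counts add up transcripts from both. The 250 bases before each start are shown because Rorb was the member that rose in cortex. Capitals in the first window mark a CCAAT box (CCAAT, read on the other strand as ATTGG) and 2 GC boxes (GGGCGG, read on the other strand as CCGCCC).
Rorb start 1 (chr19:19111197-19111446, minus strand): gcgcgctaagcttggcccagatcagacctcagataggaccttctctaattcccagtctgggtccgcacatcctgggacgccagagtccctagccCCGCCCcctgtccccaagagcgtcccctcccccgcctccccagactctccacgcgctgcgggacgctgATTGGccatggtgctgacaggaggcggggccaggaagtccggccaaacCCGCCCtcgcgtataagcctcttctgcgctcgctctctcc
Rorb start 2 (chr19:19001118-19001367, minus strand): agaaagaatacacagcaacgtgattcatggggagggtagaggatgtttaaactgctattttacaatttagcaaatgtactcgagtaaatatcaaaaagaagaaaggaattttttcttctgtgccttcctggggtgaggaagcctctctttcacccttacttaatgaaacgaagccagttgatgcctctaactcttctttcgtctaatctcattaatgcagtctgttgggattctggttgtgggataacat
The second window held none of the 6 motifs searched. The first is richer in G and C, at 66.0% against 39.2%, and holds 18 CpG against 4. Across all 32851 promoter windows of the RefSeq table, 32.7% held a GC box and 33.8% a CCAAT box on either strand, so neither match is rare. The half-site of T-box proteins such as Tbr1 was searched as GGTGTGA and occurs in 3.33% of all windows. The half-site of nuclear receptors such as Rorb itself was searched as AGGTCA and occurs in 14% of windows. The forkhead site was searched as TGTTTAC and occurs in 3.17% of windows. An E-box, the type bound by helix-loop-helix proteins such as Clock and Myc, was searched as CACGTG and occurs in 6.02% of windows.

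Rorb had 5163, 5322 and 5236 normalized counts in knockout cortex, against 3479, 3272 and 3505 in wild-type cortex. The 3 knockout libraries were all above the 3 wild-type ones, and they differed from each other by little. The log2 fold change was 0.62 ± 0.06 (SE; adjusted p = 0.00723), which is 1.53-fold higher, from means of 5241 ± 79.7 in knockout and 3419 ± 128 in wild-type cortex (SD, n = 3 each). Across 13 alternative settings the log2 fold change lay between 0.58 and 0.64. The call was lost without knockout library 2 (adjusted p = 0.0596), without knockout library 3 (adjusted p = 0.0724) and with the replicate block (adjusted p = 0.0678). In hippocampus Rorb had 1317, 1209 and 1451 normalized counts in the knockout, against 1229, 1391 and 1400 in wild type. These groups overlapped, with a log2 fold change of -0.02 ± 0.08 and a 95% interval from -0.21 to 0.18.

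Fezf2 encodes a zinc finger repressor that directs deep layer neurons to project to the brainstem and spinal cord. It lies on chromosome 14 from 12342094 to 12348189 on the minus strand (GRCm38, ENSMUSG00000021743). The stretch of its promoter window that lies outside annotated exons is shown because Fezf2 was the member called in both tissues. It runs from 250 to 95 bases before the RefSeq start, lies inside the gene's annotated span, and held none of the 6 motifs. The exonic rest of the window, which is not shown, held a GC box.
Fezf2 (chr14:12345960-12346115, minus strand): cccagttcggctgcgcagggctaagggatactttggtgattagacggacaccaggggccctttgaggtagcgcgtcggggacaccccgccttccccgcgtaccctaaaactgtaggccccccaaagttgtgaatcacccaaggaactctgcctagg

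Fezf2 had 2451, 2342 and 2454 normalized counts in knockout cortex, against 3142, 3619 and 3071 in wild-type cortex. Every knockout library was below every wild-type one, and wild-type library 2, which stood apart, was the highest. The log2 fold change was -0.44 ± 0.08 (adjusted p = 0.0451). This call lay close to the threshold and was lost in 9 of 13 alternative settings, among them without any 1 library other than wild-type library 2, with adjusted p between 0.110 and 0.221 on leaving out a library. Without wild-type library 2 Fezf2 was called at -0.36 (adjusted p = 0.000565), and its values over the 13 settings lay between -0.48 and -0.36. In hippocampus Fezf2 had 2735, 2668 and 2584 normalized counts in the knockout, against 2037, 2364 and 2218 in wild type. All 3 knockout libraries were higher there. The log2 fold change was 0.27 ± 0.06 (adjusted p = 0.0139), or 1.21-fold higher, and the call was lost in 4 of 15 alternative settings, without knockout library 1, knockout library 2 or wild-type library 3 and with a constant prior variance (adjusted p between 0.0505 and 0.0526). The 6 markers of excitatory neurons summed to between 632395 and 669370 in knockout hippocampus and between 510512 and 611364 in wild-type hippocampus, with 5 of the 6 called as rises and a median log2 fold change of 0.27. Over all hippocampus genes 14.1% rose. Markers of cells other than neurons also rose there, 6 of 6 for microglia (median 0.41) and 5 of 7 for oligodendrocytes (median 0.23). Of 6 astrocyte markers 3 rose and 1 fell, and of 5 endothelial markers 0 rose and 0 fell. Of the 12 hippocampal field markers 2 rose and 4 fell. The part of any of these cell types in the Fezf2 level was not tested.

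The difference between the tissues was tested as the interaction term over all 12 libraries, hippocampus effect minus cortex effect. Of the 9 genes 3 were called, 1 with a higher and 2 with a lower value in hippocampus, where 3.02% of 21282 genes were called, 0.963% higher and 2.05% lower. Fezf2 rose in hippocampus (0.27) and fell in cortex (-0.44), a difference of 0.71 ± 0.10 (adjusted p = 0.00726), and this difference was called in all 19 alternative settings, between 0.63 and 0.76. Rorb had -0.02 in hippocampus and 0.62 in cortex, a difference of -0.63 ± 0.10 (adjusted p = 0.0118). Cux1 had -0.16 in hippocampus and 0.27 in cortex, a difference of -0.44 ± 0.10 (adjusted p = 0.0442). The Rorb difference was lost in 1 of 19 settings and the Cux1 difference in 12, and both were lost when the trend of each library along exonic length was removed. Rorb then had -0.34 (adjusted p = 0.0949) and Cux1 0.03 (adjusted p = 0.901).

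**Figure D2:**
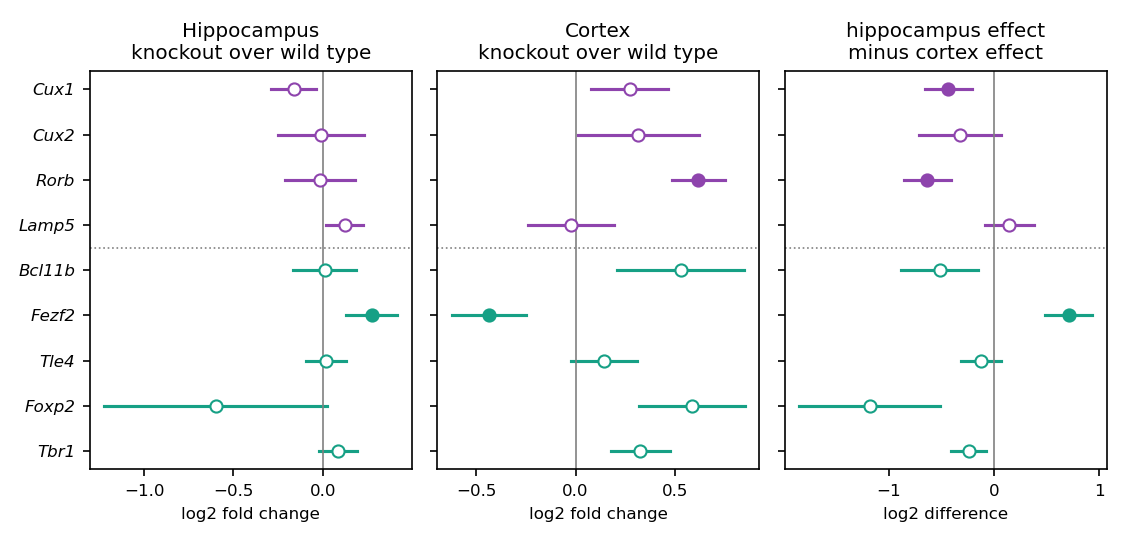
Log2 fold changes of knockout over wild type in hippocampus (left) and cortex (middle) and their difference (right), with bars for the 95% interval. Filled points passed an adjusted p below 0.05, upper layer genes are purple and deep layer genes green, and the panels have separate horizontal scales. Fezf2 is the gene filled in all 3 panels.

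Among the other upper layer genes, Cux1 and Cux2 encode related homeodomain factors that control dendrites and synapses of upper layer neurons. Cux1 (chromosome 5, 136248135 to 136567490) had 11144, 10152 and 10696 normalized counts in knockout cortex, against 9069, 7931 and 9541 in wild-type cortex. The groups did not overlap, and the log2 fold change of 0.27 ± 0.08 was not called (adjusted p = 0.152). An antisense gene, Gm16599, overlaps exons of Cux1, and reads of the 2 cannot be told apart without knowledge of strand. In hippocampus Cux1 had 3886, 3505 and 3622 normalized counts in the knockout, against 4211, 3914 and 4209 in wild type, with each knockout library below each wild-type one. That log2 fold change of -0.16 ± 0.05 was just short of the threshold (adjusted p = 0.0542), and the count tests edgeR and DESeq2 called it on reads recovered from the values (adjusted p = 0.0455 and 0.0197).

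Cux2 (chromosome 5, 121856366 to 122050102) had 17253, 16386 and 16824 normalized counts in knockout cortex, against 15201, 10840 and 15003 in wild-type cortex. Wild-type library 2 was the low one, and Cux2 differed by 0.31 ± 0.13 (adjusted p = 0.256). Without that library it was 0.16 and called (adjusted p = 0.00593). In hippocampus Cux2 had 3275, 2645 and 2851 normalized counts in the knockout, against 3278, 2603 and 2961 in wild type, groups that overlapped. Their difference was -0.01, with a 95% interval from -0.25 to 0.23.

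Lamp5 encodes a membrane protein of the LAMP family and marks both upper layer neurons and a class of inhibitory neurons. It lies on chromosome 2 from 136052239 to 136069917. Lamp5 had 18073, 17450 and 17546 normalized counts in knockout cortex, against 16608, 20747 and 16841 in wild-type cortex. It was the member whose groups overlapped in cortex, with wild-type library 2 above and wild-type libraries 1 and 3 below all knockout libraries. Lamp5 differed by -0.02 ± 0.09 on the log2 scale (adjusted p = 0.915), with a 95% interval from -0.24 to 0.19, and it was 0.08 without wild-type library 2. In hippocampus it had 3031, 2967 and 2828 normalized counts in the knockout, against 2761, 2699 and 2648 in wild type. The knockout libraries were all higher there by a small amount, 0.12 ± 0.04 (adjusted p = 0.0752). The 10 markers of inhibitory neurons summed to between 61766 and 64272 in knockout hippocampus and between 47069 and 55427 in wild-type hippocampus, with 5 of the 10 called as rises and 1 as a fall. Over all hippocampus genes 14.1% rose and 15.1% fell. Microglia and oligodendrocyte markers rose there as well, as given for Fezf2. The part of the inhibitory neuron markers in the Lamp5 level was not tested.

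Among the deep layer genes, Bcl11b, also called Ctip2, encodes a zinc finger factor needed for the axons of layer 5 neurons, and it is also strongly expressed by striatal projection neurons and hippocampal neurons. Bcl11b (chromosome 12, 107910403 to 108003602) had 5604, 7342 and 6390 normalized counts in knockout cortex, against 4936, 3731 and 4760 in wild-type cortex. The groups did not overlap, but the knockout libraries were spread, with library 2 highest and library 1 lowest. Bcl11b thereby differed by 0.53 ± 0.14 on the log2 scale (adjusted p = 0.108). Without wild-type library 2 it was 0.40 and called (adjusted p = 0.0177). In hippocampus Bcl11b had 17593, 18134 and 18251 normalized counts in the knockout, against 15942, 19978 and 17955 in wild type. The groups overlapped, at 0.01 with a 95% interval from -0.17 to 0.19.

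Foxp2 encodes a forkhead factor of layer 6 neurons that is known for its role in vocal learning and is also expressed in the striatum. Foxp2 (chromosome 6, 14901349 to 15441977) had 1037, 1378 and 1275 normalized counts in knockout cortex, against 789, 847 and 811 in wild-type cortex. All knockout libraries were higher, and their order was the same as for Bcl11b. Foxp2 differed by 0.58 ± 0.11 on the log2 scale (adjusted p = 0.0544), and it was 0.61 and called without wild-type library 2 (adjusted p = 0.00556). In hippocampus Foxp2 was low, at 86.9, 83.0 and 81.2 normalized counts in the knockout, against 175, 82.4 and 143 in wild type. Wild-type libraries 1 and 3 were high and library 2 lay within the range of the knockout. Its hippocampus log2 fold change was -0.60 ± 0.27 (adjusted p = 0.133), and it was -0.91 and called without wild-type library 2 (adjusted p = 0.00571). That was the 1 call in 15 alternative settings. The values over these settings lay between -0.91 and -0.14, with adjusted p up to 0.751.

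Tle4, a corepressor of the Groucho family that marks layer 6 neurons projecting to the thalamus, lies on chromosome 19 from 14448150 to 14598051. It had 4687, 4876 and 4853 normalized counts in knockout cortex, against 4554, 3994 and 4550 in wild-type cortex. The groups did not overlap, and the log2 fold change was 0.14 ± 0.07 (adjusted p = 0.341). In hippocampus it had 4562, 4520 and 4272 normalized counts in the knockout, against 4203, 4604 and 4396 in wild type, which overlapped, at 0.02 with a 95% interval from -0.10 to 0.13. Tbr1, a T-box factor that specifies layer 6 neurons and represses Fezf2 and Bcl11b during development, lies on chromosome 2 from 61802930 to 61814114. Tbr1 had 15248, 16631 and 15708 normalized counts in knockout cortex, against 13011, 12004 and 12954 in wild-type cortex, with no overlap. Its log2 fold change of 0.33 ± 0.06 was just short of the threshold (adjusted p = 0.0539), and without wild-type library 2 it was 0.29 and called (adjusted p = 0.00105). In hippocampus Tbr1 had 4656, 4865 and 4647 normalized counts in the knockout, against 4266, 4630 and 4475 in wild type, at 0.08 ± 0.04 (adjusted p = 0.200).

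In cortex 7 of the 9 genes were higher and 1 was lower in the knockout with no overlap between the groups, where 28.3% of all genes tested did not overlap, 16% higher and 12.2% lower. Without wild-type library 2, 6 of the 9 were called higher and 1 lower, with 4693 genes called in all, 11% of those tested as higher and 10.4% as lower. The median log2 fold change was 0.29 over the 4 upper layer genes and 0.33 over the 5 deep layer genes, against -0.01 over all genes tested. In hippocampus 3 of the 9 were higher without overlap and 1 was lower, where 45.8% of all genes did not overlap, 24.3% higher and 21.5% lower. The medians there were -0.01 for upper and 0.02 for deep layer genes, against 0.02 over all genes.

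Upper and deep layer genes were set against each other by an index, the mean log2 level of the 4 upper layer genes minus that of the 5 deep layer genes in each library. The index was 1.53, 1.30 and 1.39 in knockout cortex, against 1.34, 1.31 and 1.37 in wild-type cortex. The knockout range enclosed the wild-type range, and the means of 1.41 ± 0.12 and 1.34 ± 0.03 (SD, n = 3 each) differed by 0.07, or by 0.0032 without knockout library 1. In hippocampus the index was 0.12, -0.03 and 0.10 in the knockout, against 0.05, 0.04 and 0.02 in wild type, with means of 0.06 ± 0.08 and 0.04 ± 0.02. Neither difference exceeded the spread between libraries. Without Bcl11b and Foxp2, which striatal neurons also express, the difference was 0.29 in cortex and -0.14 in hippocampus. The pooled SD of the full index was 0.087 in cortex and 0.059 in hippocampus. These were the deep layer genes with the highest log2 fold changes in cortex, so leaving them out raises the cortex difference by construction. The part of striatal cells in the index was not tested.

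Markers of neighbouring brain regions moved with some of these genes. The summed level of 14 striatal neuron markers was 50982, 79232 and 64560 normalized counts in knockout cortex, against 24212, 23881 and 24396 in wild-type cortex, and 11 of the 14 rose. Its order among the knockout libraries was that of Bcl11b and of Foxp2, and also that of Rorb, Tle4 and Tbr1. Cux1, Cux2 and Lamp5 had the reverse order. The 8 choroid plexus markers had the order of the striatal sum there, with a sum of 2647, 11516 and 7147 in knockout cortex, against 1648, 1837 and 1572 in wild-type cortex, and 1 of the 8 rose. The least abundant of the striatal markers, Isl1, had a mean of 31.6 normalized counts in cortex, and none was at 0 in every library. The 5 markers of claustrum and piriform cortex summed to 16604, 16826 and 16516 in knockout cortex, against 11400, 12414 and 11547 in wild-type cortex, and 4 of the 5 rose. Over all cortex genes 1.28% rose. In hippocampus the choroid plexus markers summed to 18508, 9323 and 13456 normalized counts in the knockout, against 354494, 12823 and 183606 in wild type, and 1 of the 8 fell. Over all hippocampus genes 15.1% fell. Wild-type libraries 1 and 3, with the high sums, were those with more Foxp2. The part of these tissues in the levels of Bcl11b, Foxp2 and the other genes was not tested, and in bulk RNA fewer cells of a type cannot be told apart from less RNA per cell.

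**Figure D3:**
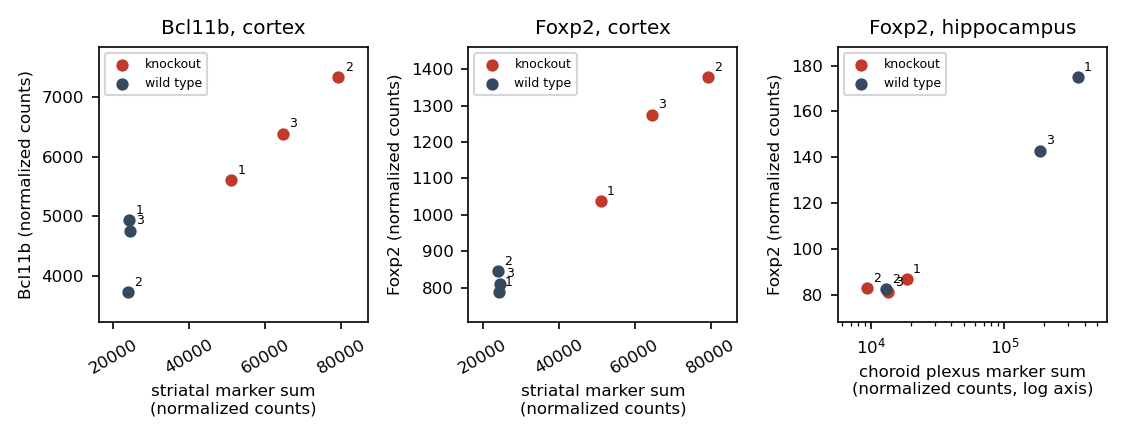
Bcl11b (left) and Foxp2 (middle) in cortex against the summed level of 14 striatal markers, and Foxp2 in hippocampus (right) against the sum of 8 choroid plexus markers on a log axis, all in normalized counts. Points are single libraries with their replicate number; vertical axes do not start at 0. Both genes follow the order of the striatal sum among the 3 knockout cortex libraries, as do Rorb, Tle4 and Tbr1, which are not drawn. Foxp2 in hippocampus is high in the 2 libraries with a high choroid plexus sum.

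Wider lists of layer genes held calls in both directions. Of 16 further upper layer genes, 0 rose and 0 fell in cortex by limma (median log2 fold change 0.05), with 4 higher and 1 lower at an unadjusted p under 0.05, where 10% of all cortex genes were higher and 8.38% lower. The smallest p belonged to Kitl, the ligand of the Kit receptor, at 0.49 ± 0.12 (adjusted p = 0.0892). Without wild-type cortex library 2, 3 of the 16 were called higher and 4 lower, where 11% of all genes were called higher and 10.4% lower. In hippocampus 4 of the 16 fell (median -0.05), where 15.1% of all genes fell. The largest fall was that of Kcnh5, a voltage-gated potassium channel, with 198 ± 16.7 normalized counts in the knockout against 501 ± 46.5 in wild type, a log2 fold change of -1.34 ± 0.11 (adjusted p = 0.000152). Unc5d, a netrin receptor family member of upper layer neurons, fell by 0.68 ± 0.09 on the log2 scale (adjusted p = 0.00132). Mdga1 and Rasgrf2 were the other two.

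Layer 5 genes were 11, and in cortex 2 of them fell (median -0.15), with 6 of the 11 lower in the knockout without overlap. Of all cortex genes 0.661% fell and 12.2% were lower without overlap. Without wild-type library 2, 5 of the 11 were called lower and 1 higher, where 10.4% of all genes were called lower and 11% higher. Ldb2, a cofactor of LIM domain proteins that marks layer 5 neurons, had 3126, 3000 and 3050 normalized counts in knockout cortex, against 4599, 4649 and 4430 in wild-type cortex. All knockout libraries were lower, at -0.58 ± 0.06 (adjusted p = 0.00723). The call was lost without any 1 of the 3 knockout libraries and with the replicate block (adjusted p up to 0.0736). Chst8, a sulfotransferase, fell by 0.38 ± 0.07 on the log2 scale (adjusted p = 0.0497). This call was lost in 9 of 13 alternative settings, among them without any 1 library other than wild-type library 2 (adjusted p up to 0.248). In hippocampus the same 2 genes rose, Ldb2 by 0.24 ± 0.05 (adjusted p = 0.0157) and Chst8 by 0.34 ± 0.07 (adjusted p = 0.00994), both on the log2 scale. The differences between the tissues were 0.81 ± 0.08 for Ldb2 (adjusted p = 0.000688) and 0.72 ± 0.10 for Chst8 (adjusted p = 0.00503), and each was called in all 19 alternative settings. Ldb2 and Chst8 thus had the same pair of directions as Fezf2. Over the 11 genes in hippocampus 3 rose and 2 fell (median 0.10), where 14.1% of all genes rose and 15.1% fell. The third rise was Tox. The falls were Deptor, an inhibitor of mTOR (-0.73 ± 0.12, adjusted p = 0.00394), and Npr3, a natriuretic peptide receptor (-0.68 ± 0.16, adjusted p = 0.0156). The Npr3 call was lost in 5 of 15 alternative settings (adjusted p up to 0.0664).

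Of 7 layer 6 genes, 1 rose in cortex (median -0.17), and 3 were called higher and 3 lower without wild-type library 2, again beside 11% and 10.4% of all genes. The 1 called over all libraries was Oprk1, the kappa opioid receptor, with 621, 687 and 588 normalized counts in knockout cortex, against 190, 173 and 187 in wild-type cortex. The groups were far apart, at 1.78 ± 0.10 (adjusted p = 0.00116), and the call held in all 13 alternative settings. The receptor is also known from striatum and claustrum, whose marker sums were higher in the same libraries. The order of Oprk1 among the knockout libraries was that of the claustrum and piriform sum and not that of the striatal sum. The part of these tissues in the Oprk1 level was not tested. In hippocampus 2 of the 7 rose and 1 fell (median 0.07), where 14.1% of all genes rose and 15.1% fell. Rprm, a p53 target linked to cell cycle arrest, rose by 0.30 ± 0.06 (adjusted p = 0.0104) and Crym was the other rise. Sox5, a SOX factor that restrains layer 5 traits in layer 6 neurons during development, fell by 0.52 ± 0.06 (adjusted p = 0.000788), and with the length trend removed the fall was 0.13 with an adjusted p of 0.125.

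Of 5 genes of layer 6b, the thin deepest layer, 1 rose in cortex (median 0.26), and 4 were called higher without wild-type library 2, beside 11% of all genes. Nr4a2, an orphan nuclear receptor that also marks the claustrum, had 2923, 2881 and 3049 normalized counts in knockout cortex, against 1013, 1531 and 1429 in wild-type cortex. The knockout libraries were all higher, at 1.18 ± 0.15 (adjusted p = 0.0176). The call was lost in 6 of 13 alternative settings, with adjusted p between 0.0606 and 0.124. These were a constant prior variance, the replicate block, and leaving out any 1 of the 3 knockout libraries or wild-type library 3. In hippocampus 1 of the 5 rose (median 0.13), where 14.1% of all genes rose. This was Ccn2, a secreted matricellular protein, by 0.71 ± 0.12 (adjusted p = 0.00469).

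**Figure D4:**
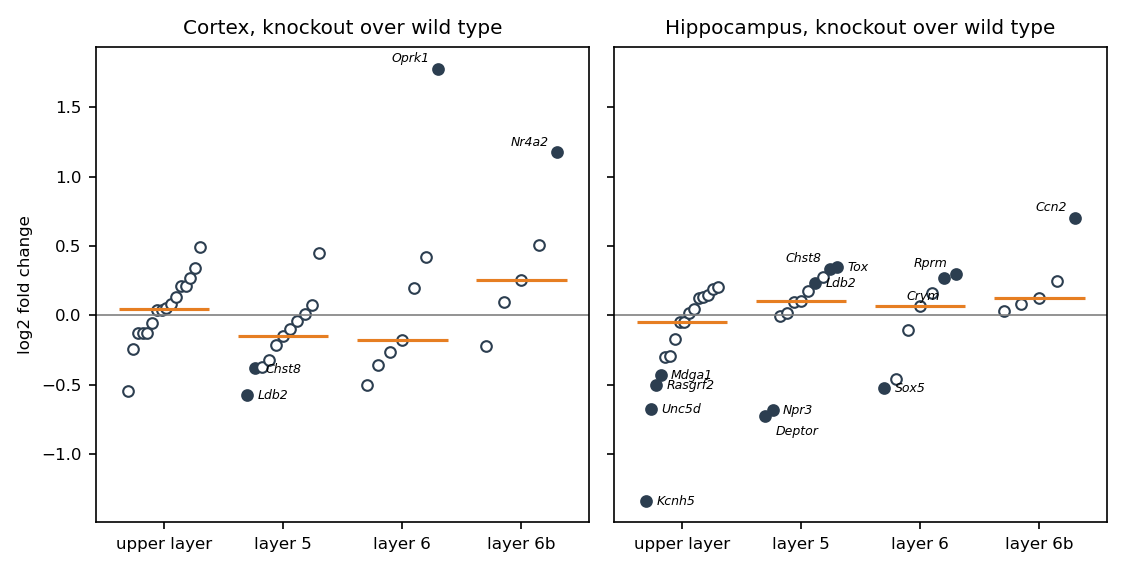
Log2 fold changes of knockout over wild type for 16 upper layer, 11 layer 5, 7 layer 6 and 5 layer 6b genes outside the 9, in cortex (left) and hippocampus (right). Each point is a gene, filled and named where its adjusted p was below 0.05, and orange lines are list medians. Ldb2 and Chst8 are filled below 0 in cortex and above 0 in hippocampus.

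Regulators of layer fate were 14 in number, of which 0 rose and 0 fell in cortex by limma, with 4 higher and 3 lower at an unadjusted p under 0.05, where 10% of all cortex genes were higher and 8.38% lower. The smallest p there was that of Sox11, a SOX factor of young neurons, at -0.43 ± 0.08 (adjusted p = 0.0549). In hippocampus 4 rose and 3 fell, where 14.1% of all genes rose and 15.1% fell. Sox5 and Sox11 (-0.34 ± 0.09, adjusted p = 0.0314) were the largest falls. The Sox11 call was lost in 9 of 15 alternative settings (adjusted p up to 0.120).

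Paralogs of the 9 genes were 12, of which 10 were tested in cortex and 11 in hippocampus. In cortex 1 rose, Foxp1, the paralog of Foxp2, which upper and middle layer neurons and striatal neurons express. Foxp1 had 10538, 11818 and 11439 normalized counts in knockout cortex, against 8262, 8758 and 8426 in wild-type cortex, at 0.41 ± 0.06 (adjusted p = 0.0360). The order of its knockout libraries was again that of the striatal marker sum, and the call was lost in 10 of 13 settings, among them without any 1 library other than wild-type library 2 (adjusted p up to 0.204). A second protein-coding model, Gm20696, overlaps exons of Foxp1, so its counts are uncertain. In hippocampus Foxp1 fell (-0.20 ± 0.05, adjusted p = 0.0195) together with Rora (-0.50 ± 0.06, adjusted p = 0.000796), a paralog of Rorb, and Foxp4 was the single rise. Of the 11 tested there 1 rose and 3 fell, where 14.1% of all genes rose and 15.1% fell. The Rora call was lost with the length trend removed (-0.15, adjusted p = 0.114).

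Exonic length was a property along which hippocampus effects differed over the whole transcriptome. Of 865 protein-coding genes whose merged exons exceed 12 kb, 71.0% fell in hippocampus (median log2 fold change -0.46), and of genes between 2 and 4 kb 4.64% fell (median 0.10). In cortex 0.693% of 866 genes over 12 kb fell (median -0.05). Upper layer genes of the set are long except Lamp5, with 20024 bases for Cux1, 10.1 kb for Cux2, 11.1 kb for Rorb and 2.93 kb for Lamp5. The deep layer genes ranged from 3.05 kb for Fezf2 through 5.49 kb for Tbr1, 5.70 kb for Tle4 and 8.11 kb for Bcl11b to 16.3 kb for Foxp2. With each library's trend along length removed, the hippocampus log2 fold changes of Cux1 and Rorb turned to 0.39 (adjusted p = 0.00475) and 0.25 (adjusted p = 0.0419), and that of Cux2 to 0.21 (adjusted p = 0.199). Fezf2 and Lamp5, the 2 shortest genes of the set, kept their hippocampus direction at 0.21 (adjusted p = 0.0433) and 0.06 (adjusted p = 0.321). In cortex the same removal left Rorb at 0.59 (adjusted p = 0.00722) and Fezf2 at -0.42 (adjusted p = 0.00972).

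**Figure D5:**
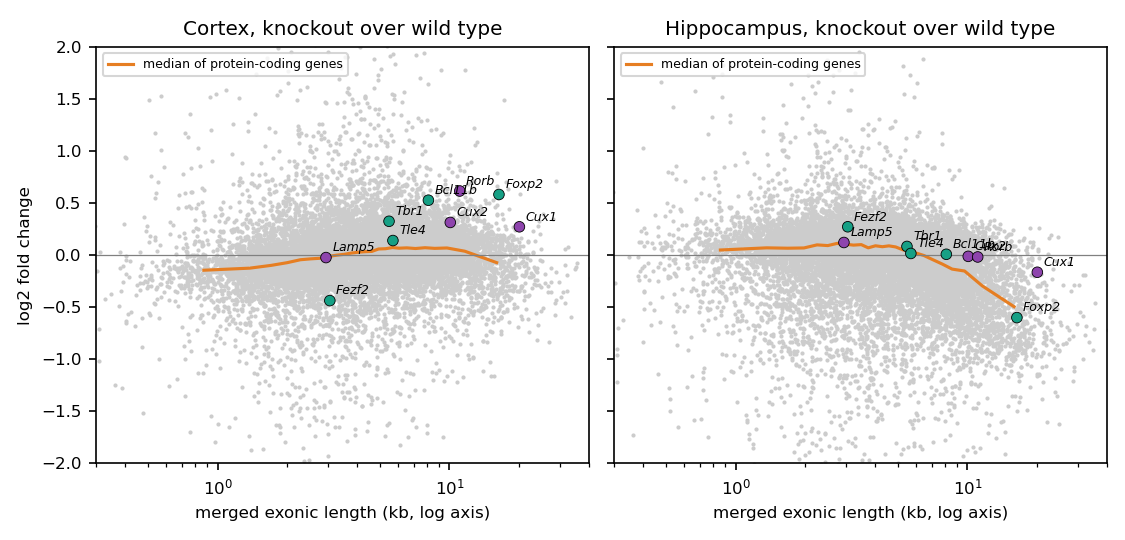
Log2 fold change of knockout over wild type against merged exonic length on a log axis, in cortex (left) and hippocampus (right), for protein-coding genes (grey), their running median (orange) and the 9 genes (upper layer purple, deep layer green). Of 15767 and 15967 genes, 113 in cortex and 181 in hippocampus lie beyond the vertical axis. In hippocampus the median falls below 0 for long genes, and Cux1, the longest of the 9, lies above it.

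Levels per length were compared between genes in TPM-like units, the share of each library's length-scaled total. In knockout cortex Lamp5 was highest at 280 and Tbr1 next at 134, followed by Cux2 at 77.4. Bcl11b (36.9) then overlapped over the 3 libraries with both Tle4 (39.1) and Fezf2 (36.8), and Cux1 (24.7), Rorb (21.9) and Foxp2 (3.49) were the lowest. In wild-type cortex the order began likewise, with Lamp5 at 279, Tbr1 at 105 and Cux2 at 62.3, and Fezf2 (48.8), Tle4 (35.0), Bcl11b (25.3), Cux1 (20.2), Rorb (14.1) and Foxp2 (2.27) followed. There the ranges of Cux2 and Fezf2 overlapped, as did those of Bcl11b and Cux1.

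In hippocampus the order per length was another. Bcl11b led at 94.3 such units in the knockout and 101 in wild type, ahead of Lamp5 at 42.7 in the knockout and 42.3 in wild type. In knockout hippocampus Fezf2 (37.2) and Tbr1 (36.6) overlapped, with Tle4 at 33.2, and in wild-type hippocampus Tle4 (35.4) overlapped with both Tbr1 (37.3) and Fezf2 (33.2). Cux2, Cux1, Rorb and Foxp2 followed in this order in both groups, at 12.3, 7.79, 5.08 and 0.218 in the knockout and 13.4, 9.42, 5.55 and 0.375 in wild type. As the tables were scaled separately, the ratio of wild-type cortex over wild-type hippocampus is a description only. Per length it was 6.61 for Lamp5, 6.05 for Foxp2, 4.64 for Cux2, 2.83 for Tbr1, 2.54 for Rorb, 2.15 for Cux1 and 1.47 for Fezf2. Tle4 was about equal in both tissues at 0.989, and Bcl11b, at 0.249, was the member with more in hippocampus by a wide margin.

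The gene whose levels most resembled each member's was sought among 14017 genes over the 12 libraries, after centring within each tissue, as a description in which libraries share genotype and tissue. For Rorb it was Kcns2 (Pearson r = 0.97), a modulatory potassium channel subunit, with log2 fold changes of 0.53 in cortex and 0.05 in hippocampus. Syngr3, a synaptic vesicle protein, was nearest to Fezf2 (r = 0.98), with -0.25 in cortex and 0.21 in hippocampus. Foxp2 was most like Ttr (r = 0.98), the main choroid plexus transcript, at 2.23 in cortex and -3.15 in hippocampus. Tbr1 was nearest to Lynx1 (r = 0.99), Lamp5 to Akr1a1 (0.98), Bcl11b to D430019H16Rik (0.98), Cux1 to Ptpn21 (0.97), Tle4 to 6430548M08Rik (0.97) and Cux2 to Tcf12 (0.95). Among the members themselves, Bcl11b and Tbr1 were most alike (r = 0.93), and Fezf2 and Cux1 were the most opposed (r = -0.89).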

How the data were processed

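RNA was extracted from mouse cerebral cortex and hippocampus with Trizol, per the labels. The authors deposited 1 table per tissue of 55487 genes, whose values are a signal the table names call normalized counts. The submitters' processing notes name STAR, HTSeq, DESeq2 and GRCm38, without versions. In every library 100% of values were whole multiples of 1 step (within 0.001 steps), and dividing by it gave reads. In cortex wild-type libraries 1 and 2 the step was near 1, at 0.991 and 1.002, and the count tests were not run in cortex. The chi-squares per gene rest on reads recovered in this way. Columns of other samples numbered 0. A value of 0 leaves room for 3 reads by counting error alone. The 95% intervals are limma's and reflect the spread between libraries.

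Symbols, exonic lengths and overlaps came from GENCODE vM21 of GRCm38, where 55227 rows matched and 260 did not; promoter windows came from RefSeq (GRCm38.p6), which held 12 windows for 8 of the 9 members. Gene models of the other strand also overlap exons of Sox5, Rora, Deptor, Npr3 and Ccn2, so their counts carry the same limit as those of Cux1. Motifs were searched on both strands. Knockout and wild type were compared per tissue by limma 3.58.1 (R 4.3.3, trended prior variance) on log2(normalized count + 1). Genes needed a mean of at least 10, and p-values were adjusted over all of them; fold changes on this scale understate low genes. "Rose", "fell" and "called" mean an adjusted p below 0.05. The interaction fit took all 12 libraries as independent, although the tissues may share animals, which the labels do not say. edgeR 4.0.16 and DESeq2 1.42.0 were run on recovered reads in hippocampus and called 6682 and 6707 genes. The fits were tested on simulated data first.

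The members and lists were chosen with earlier results of these data known. Of each wider list the text names up to 2 called genes with the largest change per tissue, or else the gene with the smallest p, and for each member the most alike gene; not every gene this rule selects is reported here. Mdga1, Rasgrf2, Tox, Crym and Foxp4, and the hippocampus values of Ldb2, Chst8 and Foxp1, were added after their values were seen. Alternatives were another pseudocount, filter, scaling and prior, removal of the length trend, a replicate block, and leaving out each library.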

Additional observations from a re-analysis of the deposited data

Results flagged for a closer look

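Among the 9 layer genes and the wider lists of layer genes, regulators and paralogs, the knockout effect differed between the tissues for 13 genes by the interaction test. Of all 21282 genes tested 3.02% were called, 0.963% with a higher and 2.05% with a lower value in hippocampus. The wider lists held 16 upper layer, 11 layer 5, 7 layer 6 and 5 layer 6b genes, 14 regulators and 12 paralogs. Some genes stand in 2 lists, and not all paralogs were tested. Members and lists were chosen with earlier results of these data known. The 13 genes are given as hippocampus effect minus cortex effect on the log2 scale. Among the 9 layer genes these were Fezf2 (0.71 ± 0.10), Rorb (-0.63 ± 0.10) and Cux1 (-0.44 ± 0.10). Among layer 5 genes they were Ldb2 (0.81 ± 0.08), Chst8 (0.72 ± 0.10) and Tox (0.56 ± 0.09, adjusted p = 0.00997). Oprk1 (-2.24 ± 0.32, adjusted p = 0.00688), Crym (0.63 ± 0.11, adjusted p = 0.0136), Sox5 (-0.72 ± 0.09, adjusted p = 0.00295) and Rprm (0.47 ± 0.10, adjusted p = 0.0382) differed among layer 6 genes. Nr4a2 of layer 6b differed by -1.10 ± 0.20 (adjusted p = 0.0187), the upper layer gene Unc5d by -0.73 ± 0.17 (adjusted p = 0.0459) and the paralog Foxp1 by -0.61 ± 0.08 (adjusted p = 0.00453). Fezf2, Ldb2, Chst8, Tox, Crym and Oprk1 were called in all 19 alternative settings of this test, and the other 7 lost the call in at least 1.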

How the results depend on the processing

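Among the 9 genes, the Fezf2 difference between the tissues kept its direction and call in all 19 settings; Rorb in cortex kept its direction in all 13 and its call in 10. Cortex calls over all genes were 233 without the filter, 1295 with the length trend removed, 86 with a constant prior variance, 45 with the replicate block, and 15 to 4693 on leaving out a library. Of the 9, cortex rises (1 as reported) were 2 with a mean of at least 50, 4 with the length trend removed, 0 with the replicate block and 0 to 6 on leaving out a library; falls (1) were 0 without the filter and with quantile normalization, constant prior or replicate block, and 0 to 1 on leaving out a library. In hippocampus, calls over all genes were 3656 to 7833 on leaving out a library; rises among the 9 were 2 with quantile normalization, 3 with the length trend removed, 0 with a constant prior and 0 to 1 on leaving out a library, and falls were 1 with a mean of at least 50, the replicate block, edgeR or DESeq2 and 0 to 2 on leaving out a library. Interaction calls were 370 without the filter, 1013 with quantile normalization, 1029 with the length trend removed, 253 with a constant prior and 171 to 1965 on leaving out a library; lower members (2) were 1 without the filter, with a constant prior or with the replicate block, 0 with the length trend removed, and 1 to 3 on leaving out a library. The index difference was 0.17 in cortex without Lamp5, 0.29 without Bcl11b and Foxp2, -0.14 in hippocampus without these, and 0.17 in hippocampus with the length trend removed. Hippocampus values changed sign for Rorb (0.0203) and Bcl11b (-0.00878) with quantile normalization, for Bcl11b with edgeR (-0.0146) and DESeq2 (-0.0121), for Tle4 with edgeR (-0.0021), and for Cux1 (0.39), Cux2 (0.21) and Rorb (0.25) with the length trend removed, which also turned the Cux1 interaction to 0.0317. Tle4's log2 ratio of cortex over hippocampus was 0.0942 without length scaling. On leaving out a library, Lamp5 in cortex ranged from -0.0797 to 0.0808, and in hippocampus Cux2 from -0.0975 to 0.0689, Rorb from -0.0844 to 0.0476, Bcl11b from -0.0742 to 0.0886 and Tle4 from -0.016 to 0.0498. The cause of these changes was not tested. Same-numbered libraries deviated together with r between -0.086 and 0.096, and libraries of unlike number with r between -0.074 and 0.090. With 3 libraries per group these values cannot decide whether the numbers pair libraries. The replicate block ended the calls of Rorb (adjusted p = 0.0678) and Fezf2 (0.159) in cortex. In the wider lists it ended the cortex calls of Ldb2 (0.0716), Chst8 (0.166), Nr4a2 (0.0606) and Foxp1 (0.120). edgeR and DESeq2 were not run in cortex. Foxp2 was low in hippocampus, at 81.2 to 175 normalized counts. The part of depth in its spread between libraries was not tested.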
